A study of Mus musculus with 6 samples.

Results

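The transcripts described here belong to the insulin-like growth factor (IGF) axis of mouse embryonic fibroblasts (MEFs). They are the ligand gene Igf1, the receptor gene Igf1r, the 6 binding protein genes Igfbp2 to Igfbp7, and Igf2bp1 and Igf2bp3, whose RNA-binding products are named after the Igf2 mRNA. The 10 genes were found by symbol among the 51499 loci of the count table, and each had a locus that carried no other symbol. The libraries came from 3 cultures labelled WT, which kept the floxed Yme1l alleles (Yme1l fl/fl), and 3 cultures labelled Yme1l-/-. YME1L, the product of the deleted gene, is a protease anchored in the inner membrane of mitochondria. Per the study's methods, the cells carry SV40 large T antigen, and Cre was used to delete the gene before single clones were grown up for both genotypes. All 6 libraries therefore share the immortalization, and a difference between clones cannot be told apart from a difference between genotypes. The labels give no treatment and no age of the embryos. The comparison addresses how the absence of YME1L changes gene expression in these cells.

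IGF1 is a secreted growth factor that activates the receptor tyrosine kinase IGF1R, and the receptor signals through IRS adaptors to the PI3K-AKT pathway and to MAP kinases. In the extracellular fluid most IGF is held by IGF-binding proteins, which limit or prolong access to the receptor and are in turn cleaved by proteases such as PAPP-A. Fibroblasts are known producers of IGF1 and of several binding proteins. The IGF2BP proteins, also called IMPs, act inside the cell, where they bind mRNAs and affect their stability, localization and translation.

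Of the 10 genes, 9 had enough counts to be tested and all 9 passed the quasi-likelihood test of edgeR (adjusted p under 0.05), 7 of them lower and 2 higher in Yme1l-/- MEFs. Calls were common in this comparison, with 67.7% of all 13867 loci tested called, 34.1% lower and 33.6% higher. A call by itself therefore set these genes little apart. The genes were chosen with earlier results of these data known. The shares of all loci given beside them are therefore a description and no test of the axis. At least 2-fold changes were found for 5 genes, Igf1, Igfbp3, Igfbp4 and Igfbp7 lower and Igfbp2 higher, against 17.7% of all loci with such a call (8.63% lower and 9.1% higher). The remaining 4 calls, Igf1r, Igf2bp1 and Igf2bp3 lower and Igfbp6 higher, were of less than 2-fold, and that of Igfbp6 turned to lower when the median change of its chromosome was removed. The libraries of the genotypes did not overlap for any of the 9 genes, as for 71.9% of all loci (36.0% with every Yme1l-/- library lower and 35.9% with every one higher). The median log2 fold change (Yme1l-/- over WT) of the 9 genes was -0.38, and that of all loci tested was -0.0041. Igfbp2 passed the filter on low counts only through the Yme1l-/- libraries, and Igfbp3 and Igfbp7 only through the WT libraries, so these 3 had to differ. Of the 6 genes with at least 10 counts in every library, 5 were called lower and 1 higher, and 2 of the 6, Igf1 and Igfbp4, changed at least 2-fold.

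**Figure D1:**
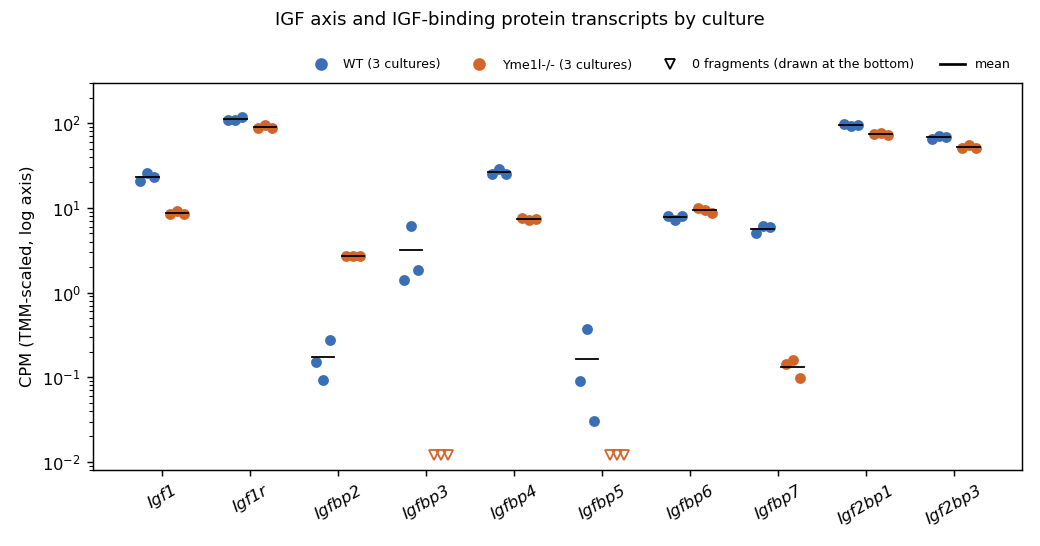
Scaled counts (CPM, counts per 1e6 fragments, log axis) of the 10 genes in each of the 3 WT and 3 Yme1l-/- libraries, with each library as a point. Igfbp7 lay between 4.98 and 6.14 CPM in WT and between 0.0981 and 0.159 CPM in Yme1l-/- libraries, Igfbp2 changed in the opposite direction, and Igfbp3 and Igfbp5 had no fragment in any Yme1l-/- library.

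The WT libraries held between 33180867 and 34012520 counted fragments and the Yme1l-/- libraries between 34624075 and 49351107. Yme1l1, the targeted gene, was counted at 188.7 ± 5.16 CPM in WT and 39.1 ± 1.34 CPM in Yme1l-/- MEFs (SD, n = 3 each), which goes with the labels (log2 fold change -2.27 ± 0.05 SE, adjusted p = 2.4e-11). WT replicate 2 stood apart from the other WT libraries, since 45 of 11893 loci with a WT mean of at least 1 CPM were at least 2-fold higher there than in both others, against 7 to 17 loci for the remaining libraries of either genotype. Igfbp3 was among those 45 loci. Of 12 fibroblast marker genes, 10 were tested, with 1 higher and 8 lower (67.7% of all loci were called, 34.1% lower), and the list's summed level was 14203 to 14873 CPM in WT and 8330 to 8965 CPM in Yme1l-/- libraries. Among the 8, Col3a1 (adjusted p = 0.027, edgeR) leaned on WT replicate 2, with 86.3, 301.2 and 91.1 CPM in WT. It was called in 10 of 14 alternatives. The fibroblast marker Thy1 was nearly absent, with at most 6 fragments in a WT library. Of 6 epithelial markers the 3 tested, Krt18, Krt19 and Epcam, were lower (Krt18 and Epcam passed the filter on low counts only through WT, so they had to differ), and the list summed to 142.1 to 159.2 CPM in WT and 2.75 to 3.69 CPM in Yme1l-/- libraries. The others were too low to be tested and overlapped between the genotypes. Cdh1 had 6, 4 and 12 fragments in WT against 7, 2 and 3 in Yme1l-/- libraries. Krt8 had 5, 9 and 15 against 14, 9 and 4, and Cldn4 had 0, 0 and 4 against none. Of the neural list, 2 genes were tested and both were lower, with sums of 316.2 to 333.9 CPM in WT and 97.7 to 101.7 CPM in Yme1l-/- libraries. The endothelial, macrophage and leukocyte, and skeletal muscle lists were low throughout. Their tested members, Kdr (0.995 to 1.64 CPM), Cd68 (1.77 to 3.62 CPM), Cd14 (2.37 to 3.07 CPM) and Des (0.436 to 2.65 CPM), were all called higher, though Cd14 in only 6 of 14 alternatives and Kdr in 12 of 14, and the lists summed to at most 2.00, 7.79 and 3.28 CPM in any library. Of the adipocyte list, which summed to at most 8.90 CPM, 2 genes were tested and neither was called. The defining genes Tie1, Emcn, Ptprc, Adgre1, Myog, Plin1, Rbfox3, Gfap and Sox10 had at most 3 fragments in every library. Other defining genes were too low to be tested but had more fragments in each Yme1l-/- than in each WT library, namely Pecam1 (0, 0 and 1 against 3, 6 and 10), Csf1r (3, 2 and 5 against 11, 20 and 11) and Itgam (4, 4 and 2 against 9, 14 and 29), whereas Cdh5 (0, 5 and 1 against 2, 0 and 0), Tek (6, 2 and 2 against 3, 1 and 2) and Myod1 (5, 1 and 0 against none) overlapped between the genotypes. The part of these marker genes in the changes below was not tested. In bulk RNA, fewer cells that express a gene and less RNA per cell cannot be told apart.

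Igf1, the ligand of the axis (GRCm38 chr10:87858265-87937042, plus strand), fell to 37.6% of its WT level. Its counts corresponded to 20.7, 25.6 and 23.2 CPM in WT replicates 1 to 3 and to 8.52, 9.08 and 8.54 CPM in Yme1l-/- replicates 1 to 3. The lowest WT library was thus above the highest Yme1l-/- library by more than the whole spread within either genotype. The mean fell from 23.2 ± 2.48 to 8.71 ± 0.321 CPM (SD, n = 3 each), a log2 fold change of -1.41 ± 0.09 (SE, adjusted p = 9.8e-08, edgeR). The authors' FPKM (fragments per kilobase of transcript, scaled to depth) went from 8.54 to 4.37, a smaller fall of less than 2-fold. The annotation of Igf1 overlaps that of the antisense gene Igf1os, whose fragments cannot be told apart from those of Igf1 where the counting ignored strand. Chromosome 10 as a whole moved the other way, with a median log2 fold change of 0.30 over its loci tested.

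Igf1r, which encodes the receptor tyrosine kinase (chr7:67952827-68233668, plus strand), changed far less. It was counted at 107.9, 108.1 and 117.5 CPM in the WT libraries and at 87.6, 96.3 and 88.3 CPM in the Yme1l-/- libraries. The libraries of the genotypes did not overlap, but the step between the lowest WT and the highest Yme1l-/- library was only a little larger than the spread within each genotype. The mean was 111.2 ± 5.51 CPM in WT and 90.7 ± 4.85 CPM in Yme1l-/- MEFs, 81.6% of the WT level (log2 fold change -0.29 ± 0.05 SE, adjusted p = 0.0006, edgeR).

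Among the binding proteins, Igfbp4 encodes a secreted inhibitor of IGF action and had the highest count of the 6 in WT (chr11:99041244-99054392, plus strand). The WT libraries were at 25.3, 28.7 and 25.3 CPM and the Yme1l-/- libraries at 7.60, 7.10 and 7.46 CPM. The libraries within a genotype lay close together and the genotypes far apart. Igfbp4 fell from 26.5 ± 1.98 to 7.39 ± 0.258 CPM, to 27.9% of the WT level (log2 fold change -1.84 ± 0.08 SE, adjusted p = 4e-09, edgeR). The median of chromosome 11 was 0.36, in the other direction.

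Igfbp7 encodes a secreted protein that binds IGFs only weakly (chr5:77349240-77408041, minus strand), and it showed the largest tested fall among the genes whose change could be given as a fold. The WT libraries gave 165, 201 and 195 fragments, the Yme1l-/- libraries 5, 8 and 5. All 3 Yme1l-/- libraries kept a few fragments, so the gene was near but not at the limit of detection. The mean fell from 5.70 ± 0.624 to 0.133 ± 0.0314 CPM, to 2.34% of the WT level (log2 fold change -5.40 ± 0.22 SE, adjusted p = 3e-09, edgeR). The annotation of Igfbp7 overlaps that of Polr2b, and since the strand setting of the counting is not stated, fragments in the shared stretch cannot be assigned with certainty. Polr2b itself changed by -0.29 on the log2 scale.

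Igfbp3 encodes the main carrier of IGFs in blood (chr11:7206086-7213923, minus strand). Fragments numbered 47, 202 and 61 in WT and 0 in each of the 3 Yme1l-/- libraries. WT replicate 2 exceeded the higher of the other WT libraries 3.30-fold, so the WT level was poorly defined (3.15 ± 2.62 CPM, SD, n = 3). A count of 0 allows up to 3 fragments, or 0.0857 CPM in the smallest Yme1l-/- library, and against that limit Igfbp3 was at least 36.8-fold lower. Without WT replicate 2 it was at least 19.2-fold lower. The call was close to the threshold (adjusted p = 0.028, edgeR, with a range of 2.9e-09 to 0.1 over 13 alternatives). Without WT replicate 2 it held (adjusted p = 1.8e-05). It was lost without WT replicate 3 (adjusted p = 0.1), without Yme1l-/- replicate 1 (0.065) and with no filter on low counts (0.09). Over all loci tested, 1.36% were called lower with at most 3 counts in every Yme1l-/- library. Such limits cover counting error only.

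Igfbp5, a binding protein gene that lies tail to tail with Igfbp2 (chr1:72857932-72874884, minus strand), was barely detected and was not tested. Only 3, 12 and 1 fragments were counted in WT, and 0 in each Yme1l-/- library. Most of its fragments came from WT replicate 2. Without that library both genotypes were at or under the 3 fragments that a count of 0 allows, so no fold is given.

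Igfbp2 encodes a secreted binding protein that is abundant in fetal tissues (chr1:72824503-72852474, plus strand), and it was the gene that rose most. WT gave only 5, 3 and 9 fragments, against 94, 137 and 139 from Yme1l-/- libraries. The Yme1l-/- libraries were almost equal after scaling, at 2.69, 2.72 and 2.73 CPM, while the WT values rested on single fragments. The mean rose 15.7-fold, from 0.173 ± 0.0939 to 2.71 ± 0.0218 CPM (log2 fold change 3.95 ± 0.28 SE, adjusted p = 2.8e-07, edgeR). The median of chromosome 1 was -0.15.

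Igfbp6 encodes a binding protein with a preference for IGF2 (chr15:102144362-102149511, plus strand). The WT libraries were at 7.98, 7.24 and 7.96 CPM and the Yme1l-/- libraries at 9.92, 9.34 and 8.68 CPM. The gap between the genotypes was no larger than the spread within them. The mean went from 7.73 ± 0.421 to 9.31 ± 0.621 CPM (log2 fold change 0.27 ± 0.09 SE, adjusted p = 0.026, edgeR). This small rise was less than the median change of its chromosome, 0.59, and with chromosome medians removed Igfbp6 was called lower (-0.32, adjusted p = 0.011). The call was also lost without WT replicate 2 (adjusted p = 0.091), without Yme1l-/- replicate 1 (0.075) and without Yme1l-/- replicate 2 (0.067).

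**Figure D2:**
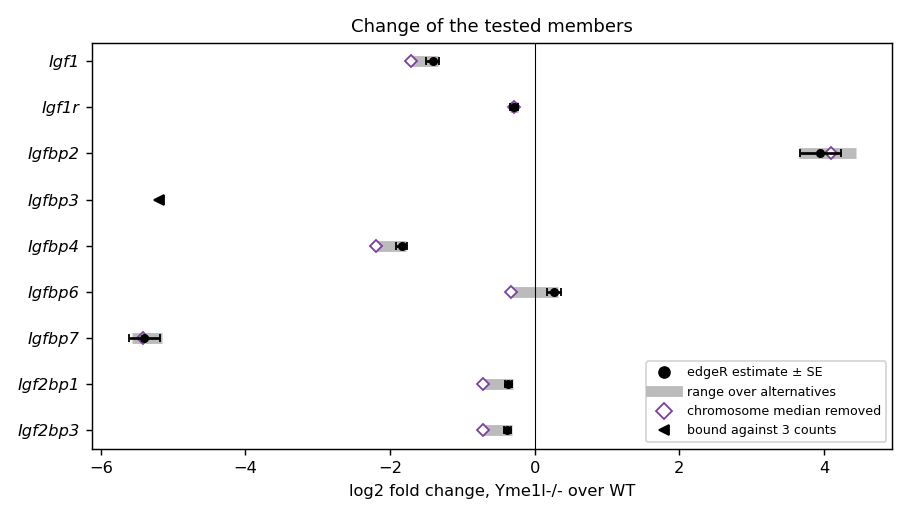
Log2 fold changes (Yme1l-/- over WT) of the genes tested with their standard errors, Igfbp3 being drawn at its bound against 3 counts per library. Igfbp7 stood at -5.40 and Igfbp2 at 3.95, while Igf1r, Igf2bp1 and Igf2bp3 lay between -0.38 and -0.29 and the small rise of Igfbp6 (0.27) turned to -0.32 with chromosome medians removed.

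Promoter sequence is shown for the binding protein genes that changed at least 2-fold, so that the 3 that fell can be read beside Igfbp2, which rose. Each run is the 250 bases before the RefSeq transcript start (GRCm38.p6), 5′ to 3′ on the strand of the gene, with capitals marking matches on either strand to a TATA box (TATAAA, or the variant spelled TATATA), to the core of a GC box (GGGCGG) and to the core of a CCAAT box (CCAAT). The 2 TATA forms can overlap each other. The windows are chr11:7213924-7214173 for Igfbp3, chr11:99040994-99041243 for Igfbp4, chr5:77408046-77408295 for Igfbp7 and chr1:72824230-72824479 for Igfbp2, the first of its 2 windows.
Igfbp3: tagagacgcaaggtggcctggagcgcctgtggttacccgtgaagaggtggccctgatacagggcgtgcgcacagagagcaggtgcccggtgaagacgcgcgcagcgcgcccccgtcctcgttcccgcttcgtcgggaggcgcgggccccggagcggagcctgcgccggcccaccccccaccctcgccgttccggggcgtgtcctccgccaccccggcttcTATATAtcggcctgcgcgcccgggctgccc
Igfbp4: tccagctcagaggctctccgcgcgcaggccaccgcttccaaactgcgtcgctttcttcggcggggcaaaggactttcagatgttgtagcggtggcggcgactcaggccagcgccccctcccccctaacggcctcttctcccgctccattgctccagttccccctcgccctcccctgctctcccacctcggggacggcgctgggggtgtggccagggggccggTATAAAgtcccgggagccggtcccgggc
Igfbp7: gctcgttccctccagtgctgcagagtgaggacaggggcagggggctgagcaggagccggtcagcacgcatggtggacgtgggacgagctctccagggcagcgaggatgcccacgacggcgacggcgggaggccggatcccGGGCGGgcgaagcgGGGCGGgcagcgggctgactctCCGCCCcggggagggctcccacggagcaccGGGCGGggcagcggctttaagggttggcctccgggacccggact
Igfbp2: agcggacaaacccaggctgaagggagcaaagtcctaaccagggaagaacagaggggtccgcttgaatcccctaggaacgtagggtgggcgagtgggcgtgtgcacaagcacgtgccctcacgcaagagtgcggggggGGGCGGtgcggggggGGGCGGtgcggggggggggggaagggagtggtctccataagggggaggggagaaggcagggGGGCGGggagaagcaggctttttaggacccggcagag

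Windows were found for 9 of the 10 genes, 10 windows of 32851 in the RefSeq table. Among the genes that fell, Igfbp4 had a TATAAA that began 28 bases before the start, a motif held by 12.4% of all windows on either strand. Igfbp3 had a TATATA that began 30 bases before the start (5.25% of all windows). CCAAT was in none of the 4 printed windows and in 33.8% of all windows. Igfbp7 held 4 GGGCGG matches and Igfbp2, which rose, held 3 in the printed window and none in its other window, against 32.7% of all windows with at least 1. The number of CG dinucleotides was 32 for Igfbp3, 26 for Igfbp7, 22 for Igfbp4 and 14 for the printed window of Igfbp2 (11 for its other window), with a median of 6 over all windows. A match is a description of the letters only.

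The binding protein transcripts together had a lower level in each Yme1l-/- library, with a different composition. The summed level of Igfbp2 to Igfbp7 was 39.97, 48.75 and 41.41 CPM in the WT libraries and 20.3, 19.3 and 18.96 CPM in the Yme1l-/- libraries. Every Yme1l-/- library was below every WT library, and the mean went from 43.4 ± 4.71 to 19.5 ± 0.720 CPM, 45.1% of the WT level (exact two-sided permutation test, p = 0.1, the smallest that 3 against 3 allows). Igfbp4 supplied 61.2% of these fragments in WT and 37.8% in Yme1l-/- MEFs. Igfbp6 went from 18.0% to 47.6% and Igfbp2 from 0.411% to 13.9%, so a gene with a small change and one of low abundance in WT together made up most of the remaining fragments. Igfbp7 went from 13.2% to 0.680% and Igfbp3 from 6.91% to 0. The WT share of Igfbp3 leaned on replicate 2, with 3.55%, 12.7% and 4.51% in WT replicates 1 to 3. Per kilobase of annotated exon, Igfbp6 made up 37.2% and Igfbp4 31.9% in WT, with equal shares in WT replicate 2, whereas the deposited FPKM put Igfbp4 above Igfbp6. In Yme1l-/- MEFs Igfbp6 made up 72.0% per kilobase. That share depends on the exon lengths used, 1112 bases for Igfbp6 and 4416 for Igfbp4. The deposited FPKM there were 9.75 for Igfbp6 and 4.84 for Igfbp4, a smaller lead than 8.37 against 1.67 CPM per kilobase.

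**Figure D3:**
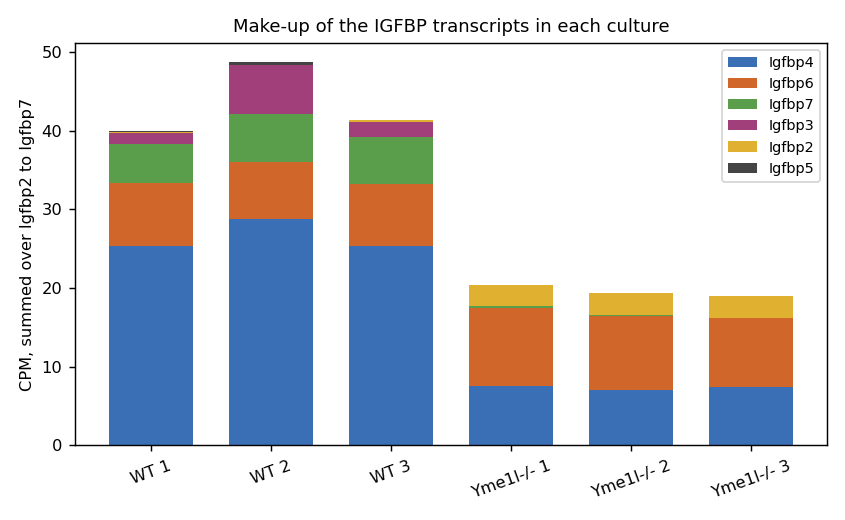
Summed CPM of Igfbp2 to Igfbp7 in each library, stacked by gene. The WT libraries reached 39.97 to 48.75 CPM, mostly from Igfbp4, and the Yme1l-/- libraries 18.96 to 20.3 CPM, mostly from Igfbp6 and Igfbp4.

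Igf2bp1 and Igf2bp3 encode RNA-binding proteins that are typical of embryonic and transformed cells, and both fell slightly. Igf2bp1 (chr11:95957163-96005940, minus strand) was at 98.4, 93.0 and 96.2 CPM in WT and at 74.4, 77.3 and 71.7 CPM in Yme1l-/- libraries. Igf2bp3 (chr6:49085223-49214957, minus strand) was at 65.7, 69.9 and 68.1 CPM in WT and at 50.8, 54.6 and 51.1 CPM in Yme1l-/- libraries. For both genes the libraries of a genotype lay close together and the genotypes did not overlap. Igf2bp1 fell from 95.9 ± 2.69 to 74.5 ± 2.80 CPM, to 77.7% of the WT level (log2 fold change -0.36 ± 0.05 SE, adjusted p = 3.8e-05, edgeR). Igf2bp3 fell from 67.9 ± 2.07 to 52.1 ± 2.13 CPM, to 76.8% (log2 fold change -0.38 ± 0.05 SE, adjusted p = 3.6e-05, edgeR). With chromosome medians removed both changes came to -0.72. The annotation of Igf2bp3 overlaps that of Malsu1, which changed by 0.61, and fragments in the shared stretch cannot be assigned with certainty. The third family member, Igf2bp2, was at 153.9 CPM in WT and 133.1 CPM in Yme1l-/- MEFs (-0.21 ± 0.04 SE, adjusted p = 0.00073, edgeR).

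Levels of different genes were compared per length with the deposited FPKM (fragments per kilobase of transcript, scaled to depth), a single pooled value per genotype that has no error. In WT the order from the top was Igf2bp1 (17.5 FPKM), Igf2bp3 (16.4), Igfbp4 (14.4), Igf1r (10.3), Igf1 (8.54), Igfbp6 (8.08), Igfbp7 (5.94), Igfbp3 (1.41), Igfbp2 (0.179) and Igfbp5 (0.0269). In Yme1l-/- MEFs Igf2bp1 (15.5 FPKM) and Igf2bp3 (13.4) came first by FPKM, followed by Igfbp6 (9.75), Igf1r (8.85), Igfbp4 (4.84), Igf1 (4.37), Igfbp2 (2.41) and Igfbp7 (0.139), and Igfbp3 and Igfbp5 were listed at 0. Igfbp2 thus stood below Igfbp7 in WT and above it in Yme1l-/- MEFs. Counts per kilobase of annotated exon, computed for each library, gave another order, but several of its steps were within the spread between libraries. In WT Igfbp6 (6.51 to 7.17 CPM per kilobase) overlapped Igf1r (6.42 to 6.999), which overlapped Igfbp4 (5.73 to 6.51), and the libraries of Igfbp2 and Igfbp5 overlapped as well. In Yme1l-/- MEFs Igfbp6 (7.80 to 8.92) overlapped Igf2bp1 (7.41 to 7.98) at the top. Other steps differed from the FPKM order beyond the spread between libraries. Igf1 lay below Igfbp7 in WT (2.09 to 2.59 against 4.12 to 5.08) and below Igfbp2 in Yme1l-/- MEFs (0.860 to 0.917 against 1.45 to 1.48). In Yme1l-/- MEFs Igfbp6 also lay above Igf2bp3 (6.22 to 6.69). That spread does not cover the choice of gene length, here all annotated exons (9904 bases for Igf1, 1209 for Igfbp7). Which order holds was therefore not settled.

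The nearest tested genes on each side are given for comparison, without a test, and loci with several symbols were left out. Several lie far away, such as Tns1 (1058 kb) and Arpc2 (1384 kb) from Igfbp2. Tns3 lies 1218 kb from Igfbp3, Hsp90b1 1153 kb from Igf1 and Adgrl3 3612 kb from Igfbp7. The 2 nearest tested genes on each side of Igfbp2 changed by -0.28 (Rpl37a, not called), -0.54 (Smarcal1), -1.71 (Tns1) and -0.54 (Arpc2), while Igfbp2 rose by 3.95. Igfbp5, whose annotated end lies 5.458 kb from that of Igfbp2, had no fragment in the Yme1l-/- libraries, where Igfbp2 was high. Around Igfbp4, Top2a changed by -0.20, Rara by -0.67 and Smarce1 by 0.10 (not called). Of the genes around Igfbp3, Adcy1 rose by 1.18, and Ramp3 and Tns3 were not called. Beside Igfbp7, which changed by -5.40, the called neighbours Polr2b (-0.29) and, farther away, Adgrl3 (59.6 to 0.0491 CPM) were lower as well. Nearest to Igf1r (-0.29) lie Ttc23 (0.16) and Fam169b (-0.67), neither called, and beyond them Synm (-0.87) and Arrdc4 (2.02), both called. Around Igfbp6, Spryd3 (0.79), Tns2 (0.51), Soat2 (1.81) and Csad (1.31) all rose more than its own 0.27, which turned to -0.32 with chromosome medians removed. Igf2bp1 fell between genes that rose, among them B4galnt2 (4.06) and Snf8 (0.55), and around Igf2bp3 Gpnmb (1.80) and Ccdc126 (1.03) rose while Tra2a, nearer than Ccdc126, was not called (0.03).

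**Figure D4:**
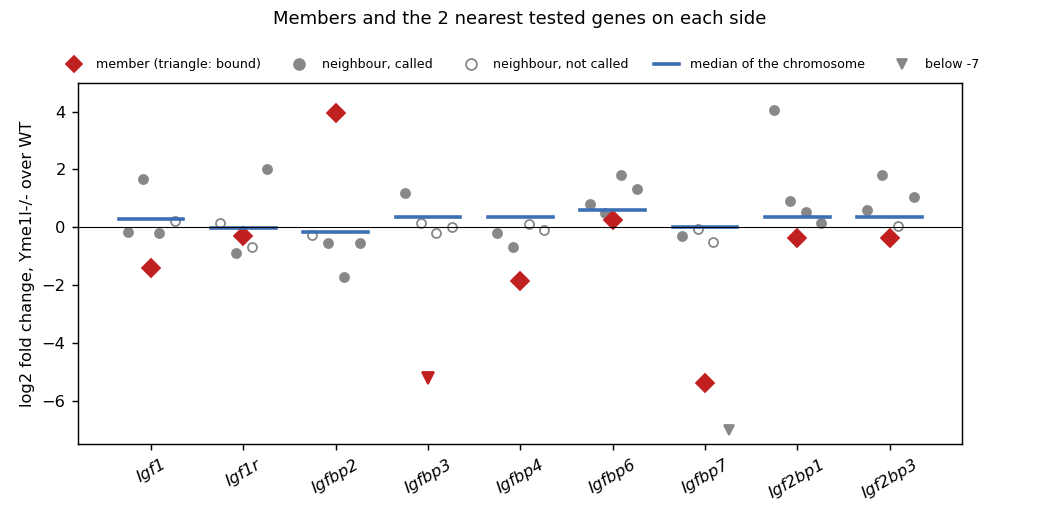
Log2 fold changes of the tested IGF axis genes (diamonds, Igfbp3 as a triangle at its bound) and of the 2 nearest tested genes on each side, with the median of each chromosome as a bar. Igfbp2 stood above and Igfbp4 and Igf1 below their neighbours, whereas Igfbp6 (0.27, or -0.32 with chromosome medians removed) lay under all 4 of its neighbours.

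Beyond these genes, 63 further genes of the pathway were examined in 5 lists, and of the 51 tested 10 were called higher, 26 lower and 15 were not called, with a median log2 fold change of -0.17. The called share, 70.6%, was close to the 67.7% of all loci, and by direction all loci had 34.1% lower and 33.6% higher. With upper-quartile scaling 16 of them were called higher. Of 10 other ligands, receptors and carriers, 4 were tested, with 1 higher and 3 lower. Igf2, encoding the second ligand, is counted together with AC013548.1 and went from 0.995 to 0.504 CPM (-0.97 ± 0.23 SE, adjusted p = 0.0027, edgeR). Igf2r, the receptor that clears IGF2 and sorts lysosomal enzymes, rose from 139.0 to 270.3 CPM (0.96 ± 0.06 SE, adjusted p = 7.3e-08). Insr, encoding the insulin receptor, was at 44.6 CPM in WT and 36.6 CPM in Yme1l-/- MEFs (-0.28, adjusted p = 0.0034), a fall that was absent with chromosome medians removed (0.035, adjusted p = 0.67). Igfbp1 had no fragment in any of the 6 libraries.

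Of 9 genes for proteases that cleave binding proteins and for inhibitors of these proteases, 7 were tested, with 2 higher and 4 lower, where 67.7% of all loci were called. Pappa2 and Stc1 passed the filter on low counts only through the genotype in which they were higher, so their calls were fixed. Pappa, which encodes the protease PAPP-A that cleaves IGFBP4, fell from 7.65 ± 1.93 to 0.933 ± 0.202 CPM (-3.03 ± 0.22 SE, adjusted p = 4.1e-07, edgeR). Adam12, encoding a metalloprotease that cleaves IGFBP3 and IGFBP5, fell from 62.9 to 1.97 CPM (-5.03 ± 0.16 SE, adjusted p = 1.1e-08). The transcripts for a binding protein and for a protease that acts on it were therefore both lower. The 2 that rose, Pappa2 (0.153 to 0.925 CPM) and Htra1 (117.6 to 162.4 CPM, 0.47, adjusted p = 5.9e-05), were, like Stc1, named after their values were seen.

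Of 28 genes of the receptor adaptors and the PI3K-AKT-FOXO branch, 26 were tested, with 4 higher, 11 lower and 11 not called, a called share of 57.7% that lies below the 67.7% of all loci. Irs1, the adaptor that docks on the activated receptor, rose from 30.1 to 63.8 CPM (1.09 ± 0.06 SE, adjusted p = 3.6e-08, edgeR). Irs2 was at 74.7 CPM in WT and 62.4 CPM in Yme1l-/- MEFs (-0.26, adjusted p = 0.0034), which was not kept with chromosome medians removed (0.058, adjusted p = 0.43). Grb10, an adaptor that restrains the receptor, fell from 380.1 to 267.3 CPM (-0.51 ± 0.04 SE, adjusted p = 6.6e-07). Foxo1, a transcription factor that AKT keeps out of the nucleus, fell from 75.4 to 20.8 CPM (-1.86 ± 0.05 SE, adjusted p = 1.4e-10).

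The growth hormone and STAT5 list, the main endocrine route to Igf1 transcription in liver, had 2 genes higher, 2 lower and 2 not called, with Ghr, the growth hormone receptor gene, going from 77.8 to 42.6 CPM (-0.87, adjusted p = 9.7e-08, edgeR, named after its values were seen). Of 10 genes of the LIN28-let-7 axis and of transcripts known to be bound by IMPs, 8 were tested, with 1 higher and 6 lower and a median of -0.64, against 67.7% of all loci called and 34.1% called lower. Lin28b, which encodes the let-7 inhibitor of the axis, had too few counts to be tested, at 3, 4 and 2 fragments in WT and 10, 38 and 41 in Yme1l-/- libraries. The Yme1l-/- libraries were all above the WT libraries. It was named after its values were seen. Hmga2, a chromatin protein gene and let-7 target, fell from 386.3 ± 59.6 to 90.6 CPM (-2.09 ± 0.10 SE, adjusted p = 2.9e-07). Hmga1 fell from 601.7 to 225.8 CPM (-1.41 ± 0.06 SE, adjusted p = 6e-09). H19, the imprinted non-coding RNA next to Igf2, is counted together with Mir675 and gave 277, 376 and 270 fragments in WT and 0 in each Yme1l-/- library, at least 109-fold lower. It passed the filter on low counts only through the WT libraries, so its call among the 6 was fixed.

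**Figure D5:**
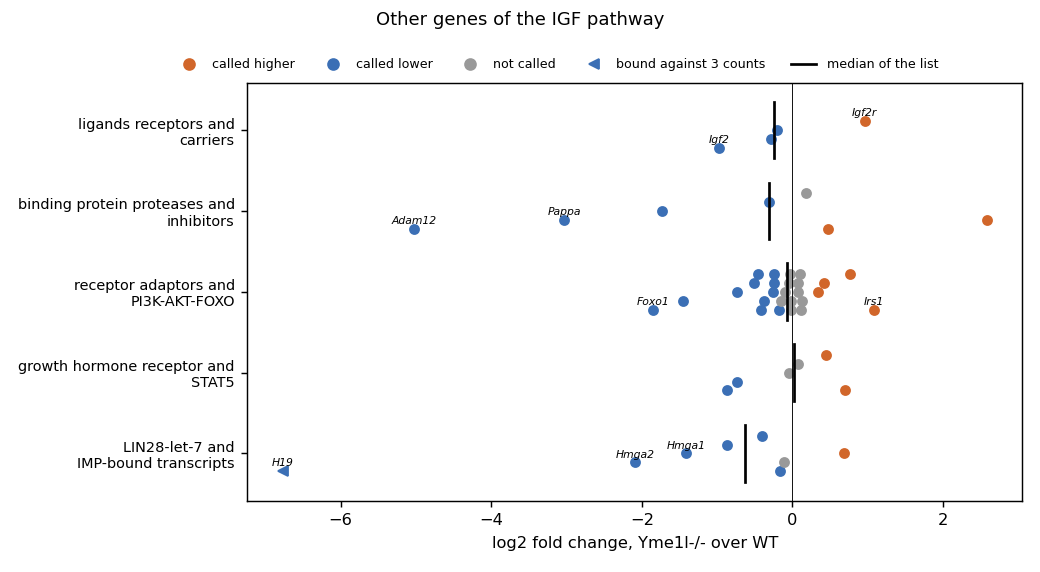
Log2 fold changes of the further IGF pathway genes tested, by list, with the median of each list as a line and the colour giving the call. Falls of more than 4-fold are seen for Adam12, Pappa, Hmga2 and H19 (the last as a bound), and the largest rises among genes named by rule are those of Irs1 and Igf2r.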

How the data were processed

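Per the labels and the study's methods, poly(A) RNA of 3 cultures per genotype was sequenced from stranded libraries in read pairs, mapped to mm10 (GRCm38, Ensembl) with HISAT2 2.0.4 and assembled with StringTie 1.3.3, and the genotypes were compared with Cuffdiff 2.2.1. The deposited count table gives raw fragment counts per locus, 635 of the 51499 loci carrying several symbols. How fragments were counted, and whether strand was used, is not given in the sources used here. The authors' deposited comparison table holds FPKM as 1 value per genotype, used here for levels between genes, and the fold changes, p-values and q-values of the authors' own test, which were not used.

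Counts were tested in R 4.3.3 with edgeR 4.0.16 (filterByExpr with minimum count 10, TMM scaling, glmQLFit with robust estimation, two-sided glmQLFTest, no covariate), with Benjamini-Hochberg adjustment over all 13867 loci that passed the filter and a call at an adjusted p under 0.05. The biological coefficient of variation was 8.47%. The SE of a log2 fold change was derived from the test, as its absolute value divided by the square root of the quasi-likelihood F statistic. CPM are counts scaled to 1e6 fragments with these factors, given as mean ± SD. Counts of 3 or fewer in every library of a genotype were replaced by 3 counts per library, which gives a lower bound and covers counting error only. The scripts were tested on simulated data. Gene positions and exon lengths were taken from GENCODE M21 (GRCm38), and promoter windows from RefSeq (GRCm38.p6). The labels number the cultures, and the series describes them as independent.

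The members and lists were chosen with earlier results of these data known. All 10 members were named. Igf2, Igf2r, Insr, Igfbp1, Igf2bp2, Irs1, Irs2, Grb10 and Pappa were always named, and other listed genes where called with an at least 2-fold change and the genotype with more averaged 1 CPM or above. Values of some single list members are counted in the lists but not reported here. Alternatives were RLE and upper-quartile scaling, DESeq2 1.42.0 (Wald test), 2 other filters (any locus with a count, or 10 counts in each sample), a replicate block, chromosome medians removed, thinning to the smallest total, and leaving out each culture in turn. Levels per kilobase of exon and the binding protein sum without Igfbp3 were added after seeing the data.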

Additional observations from a re-analysis of the deposited data

How the results depend on the processing

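Of 332 log2 fold changes of single genes recomputed under an alternative, 321 kept their direction and their side of the threshold. Directions turned only with chromosome medians removed, for Igfbp6 (-0.32), Insr (0.035) and Irs2 (0.058), of which only Igfbp6 was then called. The number of IGF axis genes called was 9 of 9 in the reported comparison, 6 of 6 with at least 10 counts in every sample and 7 to 9 when 1 culture was left out, the 7 being without Yme1l-/- replicate 1. The number of loci called ranged from 8513 to 10051. The former was 68.1% of 12493 loci with at least 10 counts in every sample, the latter 43.6% of 23035 with no filter on low counts. The share of all loci called was 67.7% in the reported comparison and 62.8% to 66.7% when 1 culture was left out. Deviations of samples with the same replicate number correlated little (0.144, -0.0939 and 0.048 for numbers 1 to 3). Samples with unlike numbers were not compared, so a pairing by number was not settled. A fit with a replicate block called 9794 loci (70.6%), against 9387 (67.7%) without it, and 9 IGF axis genes. Igfbp3 then had an adjusted p of 2.5e-08 (edgeR), against 0.028 without the block. Igfbp5 was tested only with no filter on low counts (adjusted p = 0.00039, edgeR). Without Igfbp3 the summed binding protein level changed by -1.04 on the log2 scale, against -1.15 with it. Depth limits Igfbp2 in WT, Igfbp7 in Yme1l-/- MEFs, Igfbp3 in Yme1l-/- MEFs and Igfbp5 in both, where single fragments decide the level. The cause of the changes between settings was not tested.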

Other observations

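Igfbp3 was the rank 10 locus among the 45 that were at least 2-fold higher in WT replicate 2 than in both other WT libraries. By the fold over the higher of the other WT libraries it stood at 3.30. The top of that list was held by Gm6311 at 36.4 and Gm12623 at 35.9 and by mitochondrially encoded transcripts, with mt-Nd3 at 31.9 and mt-Co2 at 30.9, followed by Dcn at 4.997, and Col3a1 (3.31) stood next to Igfbp3. These genes were named after their values were seen.

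The coefficient of variation between WT libraries was 83.2% for Igfbp3 and 110% for Igfbp5, against 10.7% for Igf1 and 2.81% for Igf2bp1.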
